A study of Rattus norvegicus with 63 samples.

Results

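The miRNAs described are a set of 6 that rat liver holds mainly in its non-parenchymal cells: rno-miR-143, rno-miR-145, rno-miR-126, rno-miR-199a-3p, rno-miR-199a-5p and rno-miR-214. They were taken by name, without the starred names of the less abundant arms, from the 350 rat miRNAs of the array, and all 6 were present on it. Of these, 5 were among the 162 miRNAs detected on at least 1 array and were tested. The exception was miR-145, which was detected on 0 of the 63 arrays. The other 5 also have a row in the authors' value table of 135 miRNAs.

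miRNAs are short RNAs that guide Argonaute proteins to partly complementary messages, chiefly through the bases of the seed near the 5′ end, and lower the output of these messages. miR-143 and miR-145 come from a shared transcript, are typical of smooth muscle and other contractile mesenchymal cells, and are known as regulators of the contractile state of such cells. miR-199a and miR-214 are made from another shared transcript and are typical of fibroblasts and of hepatic stellate cells, the pericytes of the sinusoid that make collagen once activated. miR-126 lies inside Egfl7, a gene of endothelial cells, and is the miRNA best known for tuning growth factor signalling in endothelium. In whole liver RNA such miRNAs report on cells that are few beside the hepatocytes. In bulk samples of this kind, fewer cells of a type and less RNA per cell cannot be told apart.

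The mature sequences are shown because the members are told apart by their seeds, and each of the 6 has a seed of its own. All 6 array names were matched to RefSeq entries of the GRCr8 build, older names without an arm being read as the dominant arm. Capitals mark the seed, bases 2 to 8.
miR-143 (rno-miR-143-3p): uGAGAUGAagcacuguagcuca
miR-145 (rno-miR-145-5p): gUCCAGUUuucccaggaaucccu
miR-126 (rno-miR-126a-3p): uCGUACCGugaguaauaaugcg
miR-199a-3p (rno-miR-199a-3p): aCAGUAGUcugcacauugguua
miR-199a-5p (rno-miR-199a-5p): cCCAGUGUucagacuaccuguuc
miR-214 (rno-miR-214-3p): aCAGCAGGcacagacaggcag
No other mature rat miRNA among the 693 in the RefSeq table carried any of these seeds.

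The genes lie at 3 places in the genome. Mature miR-143 lies at chr18:57371373-57371394 and mature miR-145 at chr18:57370033-57370055, both on the minus strand, within the long non-coding gene Carmn and with 1278 bases between the annotated precursors. miR-199a-5p at chr13:77116255-77116277 and miR-199a-3p at chr13:77116294-77116315 are both arms of the precursor Mir199a2, and miR-214 lies at chr13:77121713-77121733, on the same plus strand, with 5310 bases between the 2 precursors. All 3 of the latter lie within the span of Dnm3. miR-126 lies on the plus strand at chr3:29813219-29813240 within Egfl7.

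The study asked which molecular profiles of short treatments go with later liver tumours. Male Wistar Hanover rats, 8 to 10 weeks old, received a compound or its vehicle by gavage, and total RNA of the livers of 3 rats per group was hybridised to Agilent miRNA arrays, 1 array per rat. The 21 groups were 15 compounds and 6 vehicle control sets, 4 of methylcellulose (MC sets 1, 2, 5 and 6) and 2 of corn oil (CO sets 3 and 4). The treated rats were selected on histopathology from larger groups, so they are not a random draw of the treated animals. No such selection is described for the vehicle controls.

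The non-genotoxic hepatocarcinogens (NGC) were phenobarbital (PB, dose not given in the labels), piperonylbutoxide (PBO, 1200 mg/kg/day), dehydroepiandrosterone (DHEA, 600), acetamide (AA, 3000), methapyrilene (MPy, 60), methylcarbamate (Mcarb, 400), diethylstilbestrol (DES, 10) and ethionine (ETH, 200). The genotoxic hepatocarcinogens (GC) were C.I. Direct Black (CIDB, 146 mg/kg/day) and dimethylnitrosamine (DMN, 4). The non-hepatocarcinogens (NC) were cefuroxime (CFX, 250 mg/kg/day) and nifedipine (Nif, 3), and the design left cyproterone acetate (CPA, 100), thioacetamide (TAA, 19.2) and Wy-14643 (WY, 60) undefined. Dosing lasted 3 days for DES, PBO and WY, 7 days for MPy, TAA, CIDB and DMN, and 14 days for the others. The methods call the vehicle groups time-matched, but the labels give 7 days for CO set 3 and 14 days for the other control sets, which is longer than for the DES, PBO, WY, MPy and TAA rats set against them. The duration for these controls is thus unsettled. CO set 3 served CIDB and DMN, CO set 4 CPA, MC set 1 AA, DHEA, Mcarb, MPy, TAA and WY, MC set 2 CFX and Nif, MC set 5 DES, ETH and PBO, and MC set 6 PB.

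Values are log2 expression after quantile normalization of the mean spot brightness without background correction, so differences of dim miRNAs are compressed. Calls are differences with an adjusted p (Benjamini-Hochberg, over the 162 miRNAs) below 0.05 in limma fitted to all 63 arrays. There were 9 slides and 3 scan days, with 30, 28 and 5 arrays a day, and the days did not overlap in median spot brightness, which was lowest at 75 to 78 on day 3 and highest at 193.5 to 243.5 on day 1. The number of arrays, 3 per group, limits the precision, and nothing in the labels says more of the replicates than that they are separate rats.

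Labels and values disagreed for 15 samples. Their columns of the value table followed the scanner array of another sample, with r from 0.84 to 0.96 over 71 miRNAs against -0.05 to 0.67 for the array filed under their own name, whereas the other 48 columns followed their own array with r from 0.8 to 0.96. The columns of DES followed the arrays of DHEA and those of DHEA the arrays of DES. The columns of MC set 1 followed the arrays of MC set 5, those of MC set 5 the arrays of MC set 2, and those of MC set 2 the arrays of MC set 1. Results below use the scanner files under their own labels, and the called differences and counts that rest on these arrays are also given after reassignment, that is with every sample given the array that its table column followed. Reassignment exchanges whole groups, so the levels below of DES, DHEA and MC sets 1, 2 and 5 would move to another name. PB, CIDB, DMN and CPA are not touched.

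Of the smooth muscle pair, miR-143 was measured and miR-145 was not. miR-143 was detected and well above background on 63 of 63 arrays, with a log2 expression from 8.32 to 9 and a median of 8.68. miR-145, from the same transcript, ranged from 7.35 to 7.45, and its background-subtracted signal lay between -8.12 and 5.94 units. The 2 probes of miR-145 thus gave no signal over background in any rat, and no fold change is given. The striated muscle markers miR-1, miR-133a, miR-133b and miR-206 were likewise detected on no array.

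The endothelial and stellate members were seen to different extents. miR-126 was well above background on 63 of 63 arrays, from 9.07 to 9.63 with a median of 9.35. miR-199a-3p was well above background on 63 arrays too, from 7.76 to 8.36 with a median of 7.9. Its sister arm miR-199a-5p was detected on 60 arrays but well above background on 41, with a range of 7.5 to 7.68. miR-214 was detected on 29 arrays and well above background on 9, with a range of 7.47 to 7.62. Detection moved with the scan day: miR-199a-5p was well above background on 13 of 30 arrays of day 1, 23 of 28 of day 2 and 5 of 5 of day 3. For miR-214 these numbers were 1 of 30, 6 of 28 and 2 of 5. miR-214 and miR-199a-5p therefore sat at the edge of what the arrays measured, and their small differences are read with that limit.

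For each member the 21 groups were ordered by their mean. miR-143 ran from 8.91 ± 0.07 (SD, n = 3) in AA, through ETH, Mcarb and MPy, down to WY at 8.51 ± 0.1 and DMN at 8.36 ± 0.04. miR-126 ran from 9.54 ± 0.12 in MC set 6 to 9.19 ± 0.12 in WY. miR-199a-3p ran from 8.13 ± 0.21 in CO set 3 to 7.8 ± 0.02 in Mcarb. For miR-199a-5p and miR-214 the highest and lowest group means were 0.09 and 0.08 log2 units apart. In each order the ranges of all 20 pairs of neighbouring groups overlapped, so no neighbours differed beyond their spread, while groups further apart in an order could be separate.

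**Figure D1:**
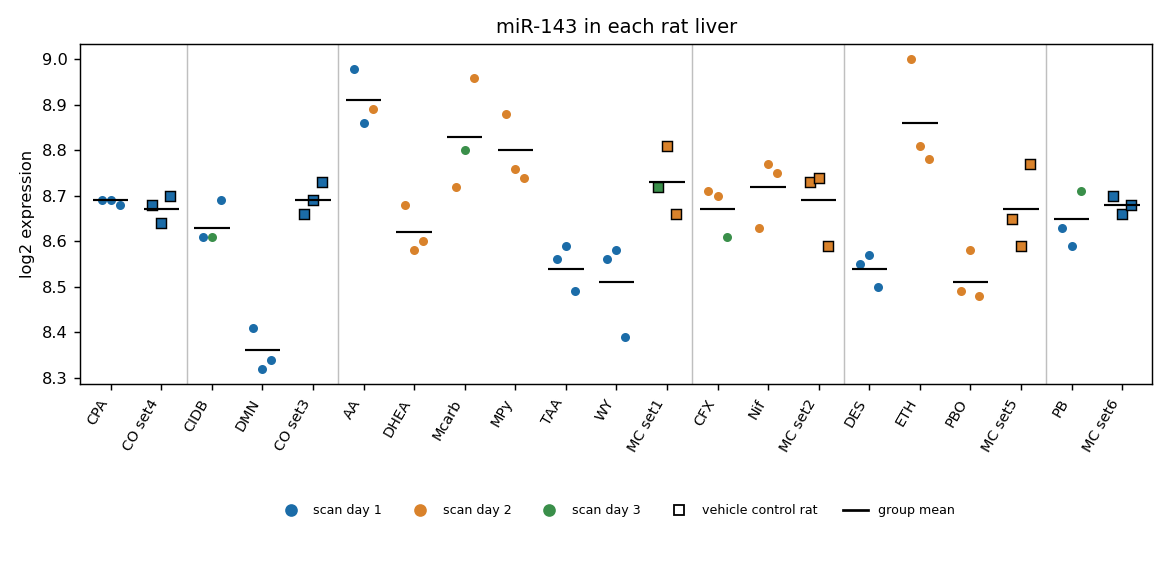
log2 expression of miR-143 in each of the 63 rats (points, 3 per group; squares are vehicle control rats, colours are scan days, bars are group means), with vertical lines between sets that share a control set. The 3 DMN rats, from 8.32 to 8.41, lie below the 3 rats of CO set 3, from 8.66 to 8.73.

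miR-143 was called lower in DMN, WY and TAA rats and higher in AA and ETH rats, and with 5 compounds it was called most often of the 5 tested members. With scan day as a block it was called in 2 compounds, and with slide as a fixed block in 0. After reassignment it was called in 4 compounds, AA, DMN, ETH and PBO. When the 15 arrays in question are left out, 4 compounds keep a control set, and of these it was called in 1, DMN. In DMN rats its log2 expression was 8.41, 8.32 and 8.34, against 8.66, 8.69 and 8.73 in the rats of CO set 3. All DMN rats lay below all controls. The log2(fold change) was -0.33 ± 0.056 (SE, limma, adjusted p = 5.54e-06), or 1.26-fold lower, in a comparison that called 23.5% of the 162 miRNAs. Both probes gave the same direction, -0.4 and -0.27, each without overlap between the groups. All 6 arrays were scanned on day 1. Leaving out any 1 of them left values from -0.36 to -0.32, and the rats of CO set 4 as controls gave -0.31 (adjusted p = 1.75e-05), with 35 of 162 miRNAs called. DMN and CO set 3 lay on different slides, and with slide as a fixed block the value was -0.25 ± 0.12 (limma, adjusted p = 0.239), with 11 of 162 miRNAs called in DMN in place of 38.

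WY, an agonist of the receptor PPARα, and TAA, a toxicant of the centrilobular liver, came next. In WY rats miR-143 stood at 8.56, 8.58 and 8.39, against 8.72, 8.81 and 8.66 in MC set 1, all lower than all controls. The log2(fold change) was -0.22 ± 0.056 (limma, adjusted p = 0.00309, 25.9% of miRNAs called in WY). In TAA rats it stood at 8.56, 8.59 and 8.49, again below all controls, with a log2(fold change) of -0.19 ± 0.056 (limma, adjusted p = 0.0149, 21.6% called). Both calls were lost after reassignment, at -0.16 for WY (adjusted p = 0.0512, 11.1% called) and -0.13 for TAA (adjusted p = 0.189, 7.41% called), though the groups still did not overlap. The WY and TAA arrays were scanned on day 1 and those of MC set 1 on days 2 and 3. With scan day as a block the values were -0.2 (adjusted p = 0.0716) and -0.16 (adjusted p = 0.15). Slides differed from those of MC set 1 as well, and with slide as a fixed block they were -0.28 (adjusted p = 0.391) and -0.25 (adjusted p = 0.571). Against MC set 6, which was also scanned on day 1, they were -0.17 for WY (adjusted p = 0.0211) and -0.13 for TAA (adjusted p = 0.0692). These comparisons called 54 of the tested miRNAs in WY and 37 in TAA, and between MC sets 1 and 6 themselves 33 were called. The WY call also rested on WY replicate 3, without which it was -0.16 (adjusted p = 0.0625), and the TAA call on TAA replicate 3 (-0.16, adjusted p = 0.0737) and MC set 1 replicate 5 (-0.15, adjusted p = 0.108).

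AA and ETH were the compounds with higher miR-143. In AA rats the values were 8.98, 8.86 and 8.89, above the 8.72, 8.81 and 8.66 of MC set 1. The log2(fold change) was 0.18 ± 0.056 (limma, adjusted p = 0.0229), or 1.13-fold, where 13.6% of miRNAs were called. It was 0.24 after reassignment (adjusted p = 0.00498, 2.47% called). Scan days differed here too, with 2 AA arrays on day 1 and none of the controls. With scan day as a block the value was 0.19 (adjusted p = 0.0502). AA and MC set 1 also lay on different slides, and with slide as a fixed block it was 0.13 (adjusted p = 0.866). Of its 2 probes, 1 gave 0.29 without overlap of the groups and the other 0.07 with overlap. The call was lost without AA replicate 1 (0.15, adjusted p = 0.138), MC set 1 replicate 4 (0.18, adjusted p = 0.0763) or MC set 1 replicate 6 (0.15, adjusted p = 0.106), and scaling to the 75th percentile over all probes gave -0.01, where the median of all 162 miRNAs was -0.05, so that miR-143 stood 0.04 above it.

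ETH, an analogue of methionine that depletes hepatic ATP, gave miR-143 values of 9, 8.81 and 8.78, against 8.65, 8.59 and 8.77 in MC set 5. The rats did not overlap, but the lowest ETH rat stood just above the highest control. The log2(fold change) was 0.19 ± 0.056 (limma, adjusted p = 0.012, 16% of miRNAs called), and 0.18 after reassignment (adjusted p = 0.0248, 15.4% called). ETH and MC set 5 lay on different slides, and with slide as a fixed block the value was 0.17 (limma, adjusted p = 0.871). After reassignment the control arrays lay on the ETH slide, and miR-143 was called in ETH with slide as a fixed block. Again 1 probe gave 0.32 without overlap and the other 0.07 with overlap. The call was lost without ETH replicate 1 (0.12, adjusted p = 0.208), MC set 5 replicate 7 (0.18, adjusted p = 0.0523) or MC set 5 replicate 8 (0.15, adjusted p = 0.119).

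In the other 10 compounds miR-143 was not called, with log2(fold changes) from -0.16 to 0.1. The value at the lower end was that of PBO, whose rats (8.49, 8.58 and 8.48) all lay below MC set 5. At -0.16 ± 0.056 it missed the threshold (limma, adjusted p = 0.0743, 8.64% called) and passed it after reassignment, at -0.17 (adjusted p = 0.032, 15.4% called). In DES the value was -0.13 (adjusted p = 0.0597, 37% called), and -0.07 (adjusted p = 0.52) after reassignment. Against MC set 6, scanned on the same day as DES, it was -0.14 (limma, adjusted p = 0.0956, 28 miRNAs called).

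**Figure D2:**
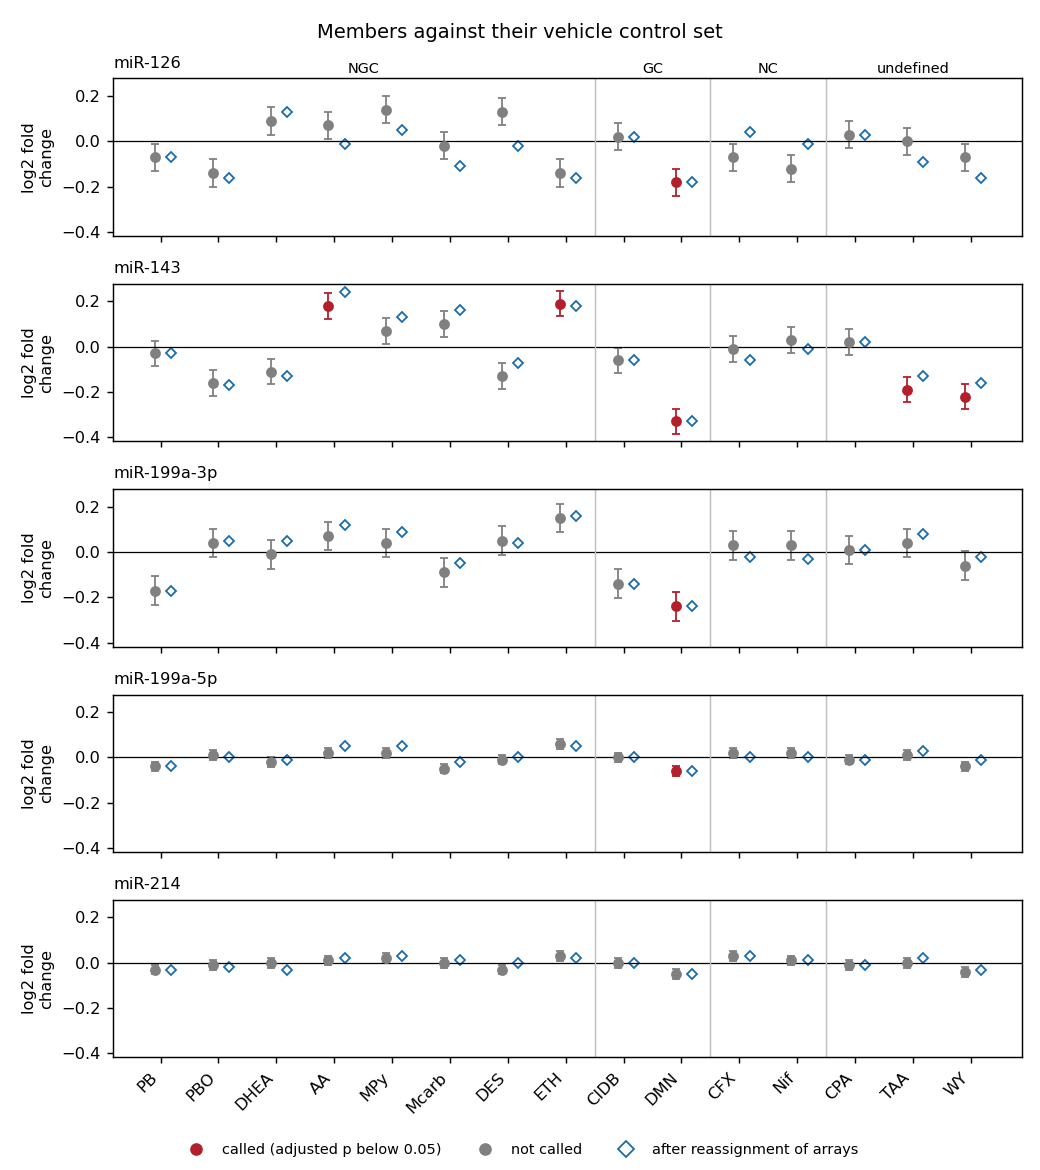
log2(fold change) of the 5 tested members (panels) against the vehicle control set of each compound (x axis, grouped by class), with the limma SE as bars and 3 rats per group. Red points are called, grey points are not, and blue diamonds give the value after reassignment. DMN is called for 4 of the 5 members, all lower, beside 23.5% of all 162 miRNAs, and miR-143 is called in 5 compounds.

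Against CO set 3, DMN was the compound with the most members called. Besides miR-143, miR-126, miR-199a-3p and miR-199a-5p were called lower, 4 of 5 members beside 23.5% of all miRNAs, and miR-214 was at -0.05 ± 0.021 (limma, adjusted p = 0.11). Against CO set 4, a set dosed for 14 days and scanned on the same day, miR-143 alone was called, with miR-126 at -0.13 (adjusted p = 0.0878), miR-199a-5p at -0.01 (adjusted p = 0.839) and miR-214 at 0.01 (adjusted p = 0.9). DMN is a nitrosamine that hepatocytes activate to an alkylating agent and that is used in rats to produce haemorrhagic injury and fibrosis.

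miR-126 was 9.29, 9.35 and 9.33 in DMN rats and 9.53, 9.46 and 9.52 in CO set 3, so that all DMN rats lay below all controls. The log2(fold change) was -0.18 ± 0.06 (limma, adjusted p = 0.0253), with both probes lower, at -0.11 and -0.25. The call was lost without DMN replicate 1 (-0.16, adjusted p = 0.0808), CO set 3 replicate 4 (-0.17, adjusted p = 0.085) or CO set 3 replicate 6 (-0.17, adjusted p = 0.0581). It was also lost with slide as a fixed block (-0.04, adjusted p = 0.926) and in the value table (-0.15, adjusted p = 0.303).

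miR-199a-3p was 7.88, 7.85 and 7.94 in DMN rats, and 7.94, 8.11 and 8.36 in CO set 3. The groups met at 7.94. The log2(fold change) of -0.24 ± 0.063 (limma, adjusted p = 0.00334) rested on the control rat at 8.36, CO set 3 replicate 6, which was the highest of all 63 rats. Without it the value was -0.13 (adjusted p = 0.116). Against CO set 4, with rats at 7.9, 7.97 and 7.97, it was -0.05 (adjusted p = 0.624). miR-199a-5p followed the same rat: 7.54, 7.57 and 7.57 in DMN stood against 7.58, 7.61 and 7.68, with a log2(fold change) of -0.06 ± 0.021 (limma, adjusted p = 0.0326). It was -0.03 without that rat (adjusted p = 0.345), -0.05 without DMN replicate 1 (adjusted p = 0.138) and -0.07 without DMN replicate 2 (adjusted p = 0.0544). This arm was well above background in 1 of 3 DMN rats and 2 of 3 controls.

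In the same DMN rats most markers of leukocytes were higher than in CO set 3, which lay on another slide. Of 5 leukocyte miRNAs measured, 4 were called higher and 0 lower, beside 22 higher and 16 lower of all 162 miRNAs. Among the 4 were miR-142-3p at 0.76 ± 0.116 (limma, adjusted p = 1.01e-06) and miR-146a at 0.49 ± 0.078 (limma, adjusted p = 2.82e-06), while miR-150 of lymphocytes was at 0. The summed brightness of the 5 was 1494 to 1899 units in DMN rats and 1193 to 1286 in CO set 3. Of the 3 hepatocyte miRNAs, 1 was called, miR-122, the most abundant liver miRNA, at -0.09 ± 0.032 (limma, adjusted p = 0.0329), and their summed brightness was 25158 to 27537 units against 26889 to 28756. The 2 erythroid miRNAs were not called, with sums of 751 to 1375 and 907 to 1500 units, and the 4 striated muscle miRNAs were not detected. The part of these cell types in the members' fall was not tested.

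Other miRNAs of mesenchymal and vascular cells showed both directions in DMN. Of 17 named, 14 were tested, 5 were called lower and 1 higher, with a median of -0.04. Over all 162 miRNAs 16 were called lower and 22 higher, with a median of -0.004. The 5 lower ones of the list were miR-10a-5p (-0.38), miR-24 (-0.15), miR-99a (-0.25), miR-195 (-0.29) and miR-497 (-0.25), and miR-27a was higher at 0.2. These 6 names are given after their values were seen. The collagen regulators miR-29a, miR-29b and miR-29c, which target collagen messages, were at 0.02, 0.31 and -0.09 in DMN and none was called.

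**Figure D3:**
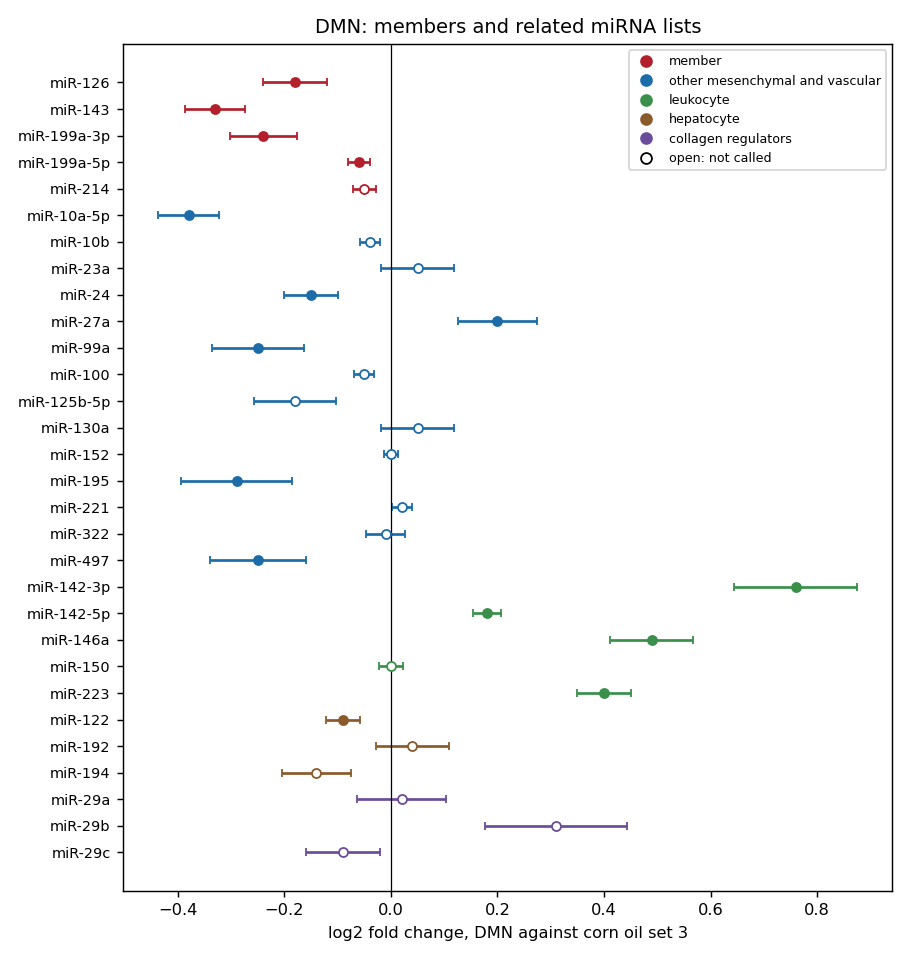
log2(fold change) in DMN rats against CO set 3 (x axis, limma SE as bars, 3 rats per group) for the tested members, other mesenchymal and vascular miRNAs, and leukocyte, hepatocyte and collagen-regulating miRNAs; filled points are called. Of the members 4 of 5 are called and lower, and of the leukocyte miRNAs 4 of 5 are called and higher, beside 23.5% of all 162 miRNAs called. Against CO set 4 miR-143 is the only member called.

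Beside the other miR-143 calls the lists varied with the compound. In WY 6 mesenchymal and vascular miRNAs were called lower and 1 higher of 14, with miR-99a at -0.33 ± 0.087 (limma, adjusted p = 0.0041) and miR-125b-5p at -0.31 ± 0.077 (limma, adjusted p = 0.00237). After reassignment 2 were lower and 1 higher, and these 2 miRNAs stood at -0.18 (adjusted p = 0.162) and -0.21 (adjusted p = 0.0557). In TAA 3 were called lower, with miR-195 at -0.31 ± 0.105 (limma, adjusted p = 0.0287) and miR-99a at -0.23 ± 0.087 (limma, adjusted p = 0.047), and 1 was called after reassignment, with miR-195 at -0.31 (adjusted p = 0.0534) and miR-99a at -0.08 (adjusted p = 0.568). In neither compound was a leukocyte, hepatocyte or erythroid marker called under the filed labels, and after reassignment 1 hepatocyte miRNA was called higher in WY.

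In AA miR-130a rose by 0.32 ± 0.069 (limma, adjusted p = 0.00156) while miR-99a was lower at -0.39 ± 0.087 (limma, adjusted p = 0.00162), so the list had no common direction there. After reassignment 1 of the list was called higher and 0 lower in AA, miR-130a at 0.25 (adjusted p = 0.0257), with miR-99a at -0.24 (adjusted p = 0.132). In ETH 2 mesenchymal and vascular miRNAs were called higher and 0 lower, or 1 and 0 after reassignment. ETH rats also had lower hepatocyte miR-192, at -0.66 ± 0.069 (limma, adjusted p = 1.98e-10), and miR-194, at -0.55 ± 0.065 (limma, adjusted p = 4.88e-09), or -0.73 and -0.63 after reassignment, and 3 of 5 leukocyte miRNAs called higher, or 1 of 5 after reassignment. The leukocyte sum was 1461 to 1502 units in ETH rats and 1291 to 1316 in MC set 5, and the hepatocyte sum 27547 to 27645 against 28183 to 28752. Their part in the higher miR-143 was not tested.

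Over all 15 compounds the 5 tested members gave 8 calls in 75 comparisons, 2 higher and 6 lower, or 10.7%, beside 14.3% for all 162 miRNAs. After reassignment there were 2 higher and 5 lower, or 9.33%, beside 11.5%. The 14 other mesenchymal and vascular miRNAs gave 19.5%, 9 higher and 32 lower, and after reassignment 15.2%, 8 higher and 24 lower. The 3 collagen regulators gave 22.2%, all 10 higher, in CIDB, CPA, DES, DHEA and PBO, and after reassignment 11 higher, now with MPy, and 1 lower, miR-29c in ETH at -0.23 (adjusted p = 0.018). For example miR-29b was higher by 0.87 in DHEA and by 0.84 in CPA, compounds in which 0 members were called. After reassignment its value in DHEA was 0.39 and in DES 0.96. Of the other arms of the members' precursors, miR-126* was measured, was detected on 45 of 63 arrays and was called in DES, at -0.09 (adjusted p = 0.00335), where miR-126 itself was at 0.13 (adjusted p = 0.0923). After reassignment these values were 0.04 (adjusted p = 0.272) and -0.02 (adjusted p = 0.853).

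miR-126 varied between MC control sets by as much as between a compound and its controls, where MC set 6 was 1 of the sets. In the 15 comparisons its log2(fold changes) ran from -0.18 in DMN to 0.14 in MPy, each with an SE of 0.06, and 14 were not called. In 6 comparisons the rats did not overlap, 3 with treated rats above (DES, DHEA and MPy) and 3 below (DMN, Nif and PBO). After reassignment the rats of DES, MPy and Nif overlapped with their controls and those of Mcarb lay below them. Under the filed labels the number without overlap was 7 for miR-143, 4 for miR-199a-3p, 3 for miR-199a-5p and 0 for miR-214. It was not counted over all tested miRNAs, so whether 6 is unusual for miR-126 was not tested. MC set 6, with rats at 9.58, 9.63 and 9.4, stood above MC set 1, at 9.26, 9.28 and 9.24, by 0.28 log2 units (limma, adjusted p = 0.00085, 20.4% of miRNAs called between these control sets). It stood above MC set 5 by 0.19 (limma, adjusted p = 0.0385, 9.26% called) and above MC set 2 by 0.16 (limma, adjusted p = 0.0664, 6.79% called). MC set 6 was scanned on day 1 and the others on days 2 and 3, and with scan day as a block the differences were -0.24, -0.15 and -0.13 for the other sets minus set 6, with 0 called. Among the other sets the differences were smaller, at 0.11, 0.09 and 0.02 between MC sets 1, 2 and 5, which reassignment only exchanges, and 0.05 between CO sets 3 and 4. Since all MC control sets hold no compound and are labelled 14 days of vehicle, these values give the size of difference that arises here without a compound, scan day included.

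The miR-126 calls also moved with the control rats used. With all 12 MC rats pooled as controls, which changes both the sets and their number, ETH (-0.17, adjusted p = 0.00525), PBO (-0.17, adjusted p = 0.00617) and WY (-0.19, adjusted p = 0.00267) were called lower. Against their own control set the values were -0.14 (adjusted p = 0.118), -0.14 (adjusted p = 0.136) and -0.07 (adjusted p = 0.445), none called, and after reassignment -0.16 (adjusted p = 0.0545), -0.16 (adjusted p = 0.0568) and -0.16 (adjusted p = 0.0653). Against MC set 6 of the same scan day, WY was at -0.34 ± 0.06 (limma, adjusted p = 2.18e-05, 54 miRNAs called). TAA was at -0.28 ± 0.06 against this set (limma, adjusted p = 0.000587, 37 miRNAs called). For WY and TAA their own control set gave -0.07 and 0, or -0.16 and -0.09 after reassignment. WY had the lowest group mean of miR-126, with rats at 9.21, 9.31 and 9.07.

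**Figure D4:**
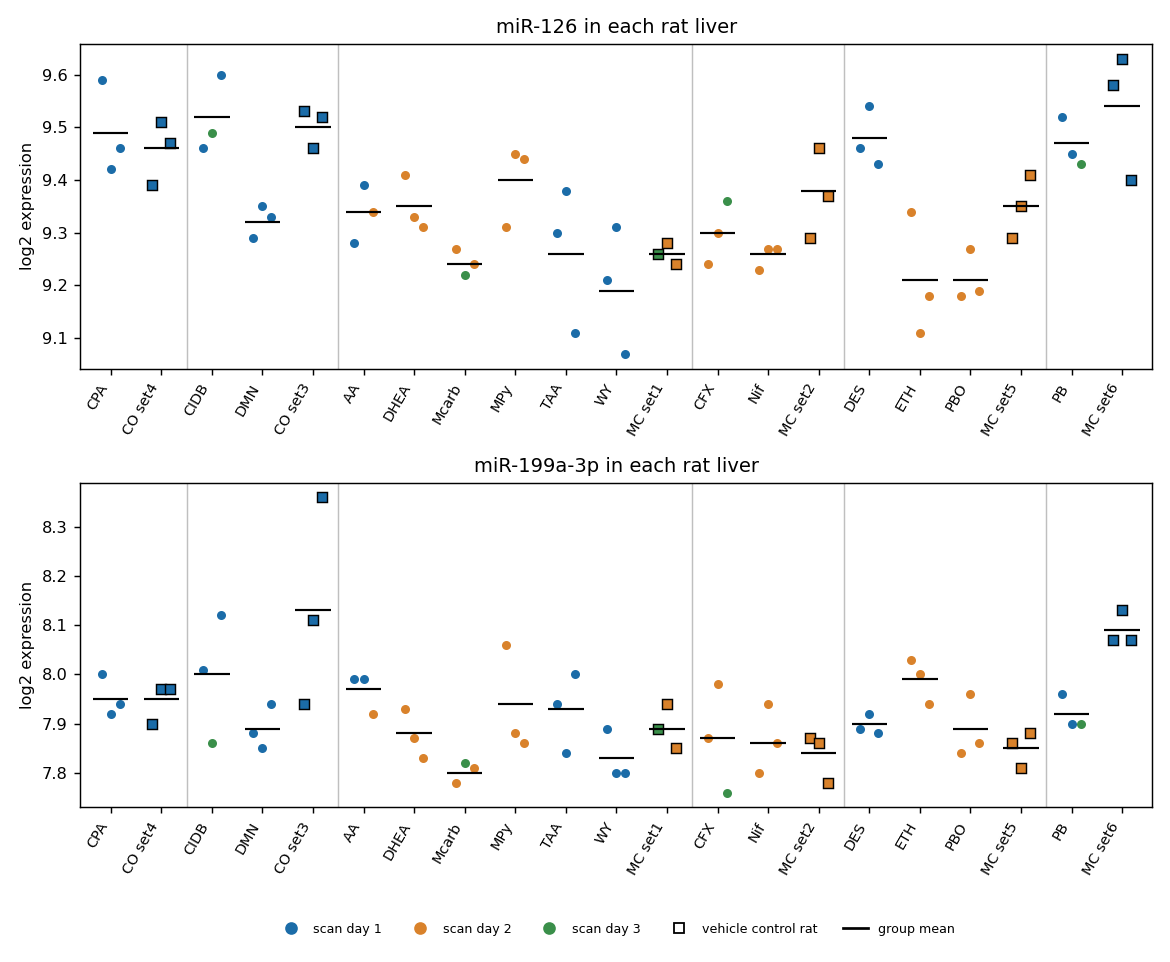
log2 expression of miR-126 (top) and miR-199a-3p (bottom) in each of the 63 rats, with squares for vehicle control rats, colours for scan days and bars for group means. Among MC controls set 6, scanned on day 1, has the highest mean of both, and CO set 3 holds the highest single rat for miR-199a-3p, at 8.36.

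miR-199a-3p showed the same set difference. MC set 6, at 8.07, 8.13 and 8.07, stood above MC set 1 by 0.2 (limma, adjusted p = 0.0168), above MC set 2 by 0.26 (limma, adjusted p = 0.00801) and above MC set 5 by 0.25 (limma, adjusted p = 0.0123). Against MC set 6, miR-199a-3p was called lower in WY (-0.26, limma, adjusted p = 0.00145) and DES (-0.2, adjusted p = 0.027). In TAA it was at -0.16 (limma, adjusted p = 0.0505). These comparisons called 54 of the tested miRNAs in WY, 28 in DES and 37 in TAA. miR-199a-5p and miR-214 were at -0.06 in WY (limma, adjusted p = 0.0285 and 0.0357) and in DES (0.0338 and 0.0454), all called. They were not called in TAA, and the compounds' own control sets gave none of these calls. miR-214 was well above background in 0 of 3 DES and 0 of 3 WY rats, and miR-199a-5p in 0 and 1. The DES values against MC set 6 were not computed after reassignment, which gives DES the DHEA arrays, scanned on day 2. No member was called between MC sets 1, 2 and 5 or between CO sets 3 and 4, comparisons in which 0% of the 162 miRNAs were called. At an unadjusted p below 0.05 limma gave 21, 16, 1 and 11 miRNAs. miR-143 differed by at most 0.06 between any 2 control sets of a vehicle, with group means from 8.67 to 8.73 in all 6.

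PB, given with MC set 6 as its control, had the second lowest miR-199a-3p difference. Its rats, at 7.96, 7.9 and 7.9, all lay below the controls, but at -0.17 ± 0.063 the value was not called (limma, adjusted p = 0.153, 3.09% called), and against all MC rats it was 0. ETH gave the highest value, 0.15 ± 0.063 (limma, adjusted p = 0.116), with rats at 8.03, 8 and 7.94 above the 7.86, 7.81 and 7.88 of MC set 5. The sister arm miR-199a-5p was at 0.06 ± 0.021 in ETH (limma, adjusted p = 0.0525). After reassignment these were 0.16 (adjusted p = 0.0794) and 0.05 (adjusted p = 0.0921). For miR-214 the 15 values ran from -0.05 to 0.03 and no groups were apart.

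The 3 miRNAs of the chromosome 13 cluster varied together from rat to rat. Over the 63 arrays the log2 values of miR-199a-3p and miR-199a-5p correlated with r = 0.78 (Spearman 0.7), those of miR-199a-5p and miR-214 with r = 0.79 (0.72) and those of miR-199a-3p and miR-214 with r = 0.6 (0.45). After subtraction of the group means the values were 0.76, 0.73 and 0.68, after subtraction of scan day means 0.84, 0.83 and 0.78, and without the 2 arrays farthest from the median 0.72, 0.72 and 0.48. The median over all pairs of the 71 miRNAs detected on every array was 0.01. miR-199a-5p and miR-214 are not among these 71, so this median does not cover pairs of dim miRNAs like them. miR-126 and miR-143, in contrast, had r = 0.06 with each other, and miR-143 had r = 0.25 to 0.34 with the cluster. After subtraction of group means and of scan day means, miR-126 and miR-143 had r = 0.29 and 0.26, and miR-143 and miR-199a-3p had r = 0.45 and 0.46. These points share arrays, slides and normalization, and dim miRNAs also share the background, so the values are descriptions.

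By the same measure the nearest miRNAs to miR-143 among the 70 others detected on every array were miR-24 (r = 0.6), miR-23a (0.5) and miR-10a-5p (0.49), all 3 from the mesenchymal and vascular list. The share of that list among the 70 was not counted, and the list was chosen with earlier results of these data known. No cell type is read from these neighbours. Those nearest to miR-126 were let-7e (0.72), miR-322 (0.64) and miR-20a (0.55), and those nearest to miR-199a-3p were let-7e (0.6), miR-130a (0.51) and miR-126 (0.43). Deviations from the group means gave lower values for the miR-126 trio, 0.35, 0.41 and 0.15, and 0.38, 0.52 and 0.42 for miR-143. For miR-199a-3p they were 0.57, 0.45 and 0.06, so its likeness to miR-126 lay mostly in the group means.

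No member was called in either NC compound. In CFX and Nif 0% of the 162 miRNAs were called, with 1 and 20 at an unadjusted p below 0.05, and the members' log2(fold changes) lay between -0.12 and 0.03. The lower end was miR-126 in Nif, whose rats, at 9.23, 9.27 and 9.27, lay below the 3 controls (-0.12 ± 0.06, limma, adjusted p = 0.381). After reassignment it was -0.01. Nor was a member called in CIDB (20.4% of miRNAs called), CPA (5.56%), DHEA (18.5%), MPy (18.5%) or Mcarb (1.85%). In CIDB the 2 probes of miR-126 went opposite ways, at 0.19 and -0.16, each without overlap of the groups, and its summarised value was 0.02. CPA and its controls lay on a single slide, and the 5 members differed by -0.01 to 0.03 there.

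Between the classes no member and no other miRNA differed past the threshold, with 0% of 162 called for the 10 NGC and GC compounds against NC, for NGC against GC and for NGC against NC. In these, 9, 20 and 15 miRNAs had an unadjusted p below 0.05 in limma fitted to compound means of the log2(fold change). The largest member differences were those between NGC and GC. For miR-199a-3p the mean was 0.01 ± 0.1 (SD, n = 8 compounds) in NGC and -0.19 in GC (-0.24 and -0.14), a difference of 0.2 ± 0.069 (SE, limma, adjusted p = 0.187). For miR-143 it was 0.01 ± 0.14 against -0.2, a difference of 0.21 ± 0.104 (SE, limma, adjusted p = 0.442). After reassignment these were 0.23 (adjusted p = 0.158) and 0.23 (adjusted p = 0.43), with 0 miRNAs called in any of the 3 contrasts. With 2 GC and 2 NC compounds, and with vehicle and GC class tied, since both GC compounds were given in corn oil, class and vehicle cannot be told apart here.

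**Figure D5:**
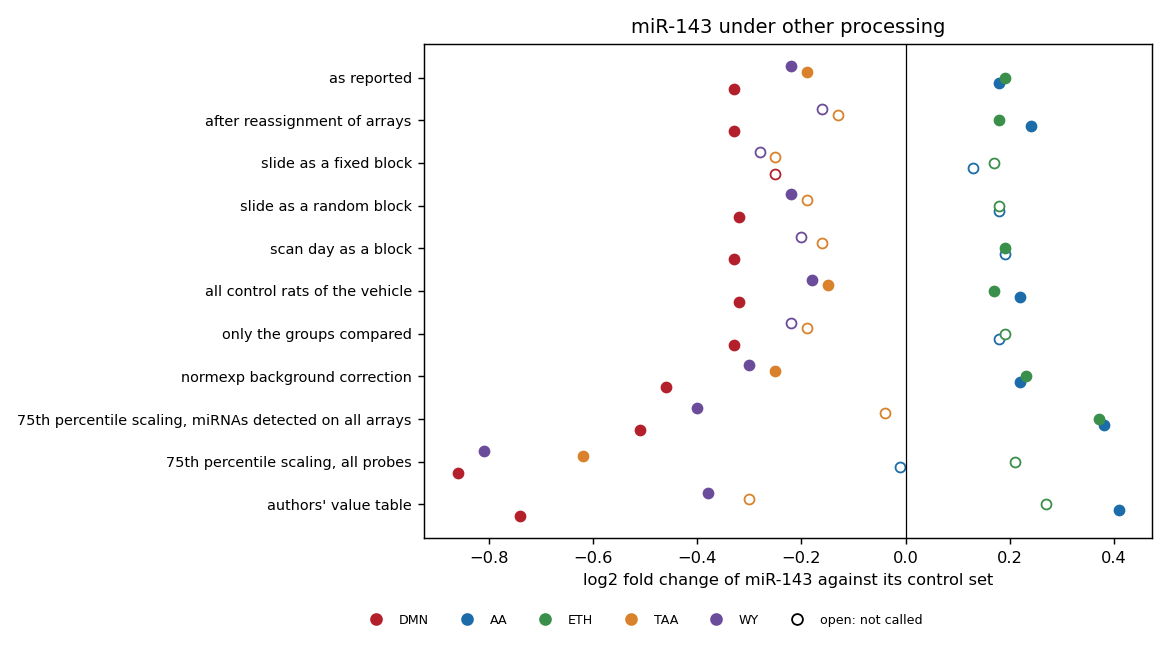
log2(fold change) of miR-143 (x axis) in the 5 compounds in which it was called (colours), under each way of processing (y axis); filled points are called, open points are not. DMN stays lower in all 11 and loses the call with slide as a fixed block, while AA is at -0.01 under scaling to the 75th percentile over all probes, with the median of all miRNAs at -0.05.

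The size of the miR-143 differences depended on the scale. In DMN the value was -0.33 as reported, -0.46 after normexp background correction, -0.74 in the value table and -0.51 and -0.86 with the background-subtracted signal scaled to the 75th percentile over the miRNAs that every array detected and over all probes, respectively. The methods describe the table as made by RMA with the background step left out. Its values run from 2.55 to 14.85, where values made here without background correction run from 7.34 to 14.7 over the 135 miRNAs found in both, and the reason was not tested. Its 63 column medians run from 4.49 to 5.01. Scaling moved the median of all 162 miRNAs by up to 0.23, in MPy, under the first percentile scaling and by up to 0.19, in Nif, under the second. WY, TAA and DMN were lower and ETH higher under the 11 ways of processing shown, but not all of these values were called. Among the scalings, TAA was at -0.04 (adjusted p = 0.939) under the first percentile scaling, or -0.19 relative to the median, and at -0.3 (adjusted p = 0.106) in the value table. ETH was at 0.27 (adjusted p = 0.116) in the value table and at 0.21 (adjusted p = 0.634) under the second percentile scaling.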

How the data were processed

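miRNA was measured in 63 livers, 1 array per rat, with the labels putting 3 rats in each of 21 groups. Per the file headers, the deposited intensities are spot brightness, local background and processed signal from Agilent Feature Extraction 10.7.3.1, without normalization between arrays. The authors deposited a second file of normalized log2 values for 135 miRNAs.

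Here spots with an outlier flag (2.87%) and control spots were left out, the mean brightness was quantile normalized without background correction, spots of a probe were averaged, and probes were summarised by median polish of log2 values. The 162 miRNAs detected on at least 1 array were fitted in limma 3.58.1 (R 4.3.3), each compound against the control set its label names. Classes were compared in limma on compound means. The fit was tested on simulated data. No arrays were identical.

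All 6 members are named in every compound, together with the 3 miRNAs most correlated with each member detected on all arrays and the 2 called list miRNAs with the largest change in each compound with a called member. The members and lists were chosen with earlier results of these data known. Marker sums add linear brightness over a list. Alternatives were the value table, the processed signal scaled to the 75th percentile, normexp correction (offset 50), other detection filters, slide, scan day or replicate number as a block, other controls, reassigned arrays and leaving out each rat. 3 were chosen after seeing the data: other control sets of the same scan day for WY, TAA and DES and for DMN, and leaving out the 15 arrays at odds with the value table.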

Additional observations from a re-analysis of the deposited data

How the results depend on the processing

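The number of compounds called was 1 for miR-126, 5 for miR-143, 1 each for miR-199a-3p and miR-199a-5p and 0 for miR-214. With the values of the authors, 2 compounds were called for miR-126 (ETH and PBO, not DMN), 2 for miR-199a-3p (DMN and ETH) and 0 for miR-199a-5p. For miR-143 the number stayed at 5, but the compounds were AA, DHEA, DMN, PBO and WY, without TAA and ETH. In DHEA its value there was -0.3 (limma, adjusted p = 0.0387). With 75th percentile scaling over miRNAs detected everywhere it was 4 for miR-126, 3 for miR-199a-3p and for miR-199a-5p and 1 for miR-214, and over all probes 2 for miR-126, where miR-143 in AA was -0.01 beside a median of -0.05 over all miRNAs. With slide as a fixed block it was 0 for all 5 members. With slide as a random block it was 0 for miR-126 and miR-199a-5p and 2 for miR-143, and with scan day as a block 2 for miR-143. After reassignment with slide as a fixed block it was 1 for miR-143, in ETH, and 0 for the others. With all control rats of the vehicle it was 4 for miR-126, 0 for miR-199a-5p and 1 for miR-214. With only the groups compared it was 1 for miR-143 and 0 for miR-199a-5p. For miR-199a-5p it was 0 with normexp or without a detection filter and 2 with the stricter filter. Without the 15 arrays whose table columns follow another array, 4 compounds keep a control, and it was 1 for miR-143, in DMN, and 0 for miR-199a-5p. Leaving out each of the 63 rats in turn gave 0 to 2 for miR-126, 4 to 7 for miR-143, 1 to 2 for miR-199a-3p, 0 to 2 for miR-199a-5p and 0 to 1 for miR-214. The causes were not tested.

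Between vehicle sets 5 member differences were called, and 0 with scan day as a block. Between classes 0 were called under all 3 alternatives. PB and CPA share replicate numbers with their control sets, and with a replicate block 0 members were called in each, as without it. Deviations of same-numbered rats correlated with r from -0.3 to 0.04, and 1 of 6 treated rats correlated best with the control of their own number, so the numbers do not pair the rats. Signal over background limits miR-145, miR-214 and miR-199a-5p.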
